A study of Homo sapiens with 2 samples.

Results

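CDKN1A, MDM2, BAX, BBC3, PMAIP1, GADD45A, SESN1, BCL2L1 and MCL1 are genes of the p53 response and of the mitochondrial pathway of cell death. They were taken by gene name from the 55797 genes of the 2 RNA-seq libraries used here, and each of the 9 names matched 1 gene. Levels are given as FPKM, the number of fragments of a gene scaled to its transcript length and to the size of the library. All 9 reached 1 FPKM in one or both libraries and stayed in every comparison below. The study sequenced live and processed Stage 6 cells, with 1 library for each. Both came from a single culture of H1, an established line of human embryonic stem cells taken through stepwise differentiation until insulin-expressing cells had appeared, and no cell type was purified from it. Live cells were neither fixed nor sorted, and their RNA was isolated with RNeasy. Processed cells were fixed in 4% paraformaldehyde, permeabilized, stained with antibody and run through a mock sort in which every cell was collected, and their RNA was isolated with a modified RecoverAll procedure. The comparison asks whether fixation, staining, sorting and the different RNA isolation together altered the representation of these transcripts. The effects of these steps cannot be told apart. With 1 library per condition there is no replicate error and no test, and the error given is the lower and upper bound that the files hold for each FPKM.

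The p53 protein is a transcription factor that accumulates after DNA damage and other stress and switches on genes for cell cycle arrest, repair and cell death. CDKN1A encodes p21, an inhibitor of cyclin-dependent kinases, and GADD45A and SESN1 are further stress genes of this response. MDM2 encodes the ubiquitin ligase that degrades p53, so that p53 induces its own inhibitor. BBC3 (PUMA) and PMAIP1 (NOXA) encode BH3-only proteins, which bind and neutralize protective proteins and thereby free BAX to permeabilize the outer mitochondrial membrane. BCL2L1 (BCL-XL) and MCL1 encode protective proteins of this kind. Several of these transcripts are short-lived, and in human embryonic stem cells the p53 pathway is known for setting off apoptosis readily.

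FPKM values summed to 510713 in the live and 499398 in the processed library. A single fragment was worth 0.0100 FPKM kb in the live library and 0.0107 FPKM kb in the processed one, so that depth was close. Detection at low levels was not equal, however, with 26176 genes listed at 0 in the live and 30569 in the processed library, and the part of this difference in the values of the members of low FPKM was not tested. Markers of the pancreatic endocrine lineage (INS, GCG, SST and CHGA) were present, with a summed FPKM of 2270 in live and 2259 in processed cells (CHGA carries a failed quantification status in the latter), as were those of pancreatic progenitors (PDX1, NKX6-1 and SOX9), with 166 and 173. Other cell types were present too. The 3 hepatic markers summed to 799 FPKM in live cells and 956 in processed cells, and the 3 mesenchymal markers to 53.4 and 41.2. The 3 pluripotency markers summed to 128 and 105 FPKM but did not move together, since LIN28A was lower (119 and 88.7 FPKM) and NANOG higher in processed cells (1.27 and 7.34 FPKM), both with separate bounds, and POU5F1 had overlapping bounds (7.92 and 8.53 FPKM). Of the 3 blood cell markers, summing to 1.04 and 0.703 FPKM, 2 were listed at 0 in processed cells. The part of these shifts in the values below was not tested, and in such bulk RNA fewer cells of a type and less RNA per cell cannot be told apart.

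CDKN1A and PMAIP1 were more than 2-fold lower in processed than in live cells, both as plain ratios and on the log2 scale used for all counts below, and BBC3 was lower as well. MDM2, another p53 target, was higher in processed cells. BAX and MCL1 had overlapping bounds, whereas GADD45A, SESN1 and BCL2L1 differed by no more than 1.36-fold. On the scale log2((processed FPKM + 1) / (live FPKM + 1)), which understates differences between low values, the 9 log2 ratios had a median of -0.27 and ran from -1.30 to 0.72. The 17326 genes that reached 1 FPKM in either library had a median log2 ratio of -0.09.

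**Figure D1:**
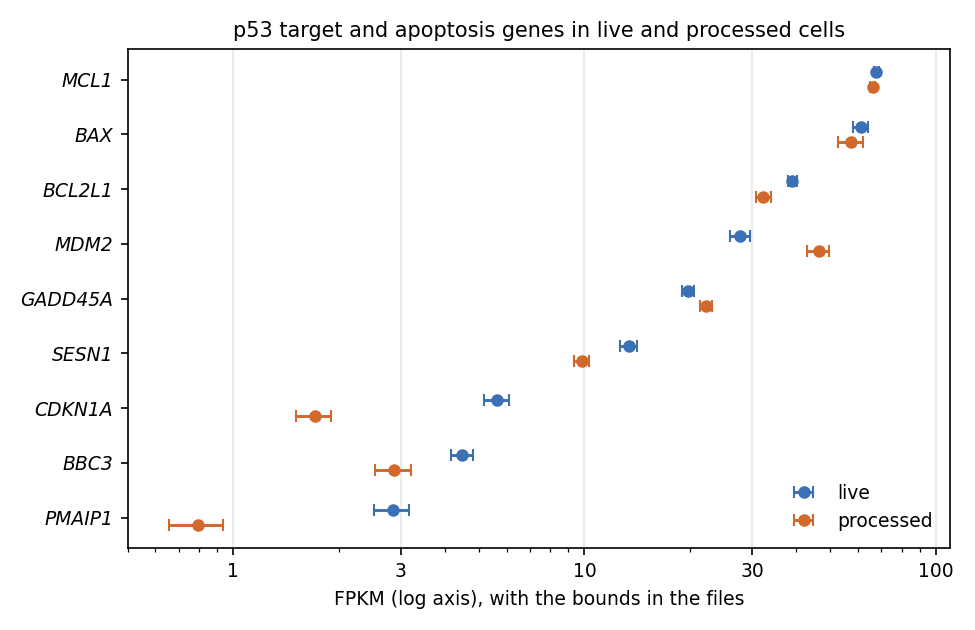
FPKM of the 9 members in live (blue) and processed (orange) cells on a log axis, 1 library each, with bars from the lower to the upper bound in the files. CDKN1A, PMAIP1 and BBC3 are the 3 members of lowest live FPKM and lie to the left in processed cells, MDM2 lies to the right, and the bars of BAX and MCL1 overlap.

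Among the genes of cell cycle arrest and stress, CDKN1A (ENSG00000124762.7, GRCh37 chromosome 6, 36644305 to 36655116, plus strand) had 5.65 FPKM in live cells, with bounds of 5.19 and 6.11. In processed cells it had 1.70 FPKM, with bounds of 1.51 and 1.90. The processed library was thus 3.32-fold lower, or 2.73- to 4.06-fold when the bounds of both libraries are combined at their extremes, and the log2 ratio was -1.30. These values correspond to about 1097 fragments in the live and 309 in the processed library, so that neither rests on a handful of reads. Of all genes compared, 3.03% had a lower log2 ratio, and of the protein-coding ones 1.52%.

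GADD45A, whose product binds PCNA and p21 and restrains the cell cycle, went the other way (ENSG00000116717.7, chromosome 1, 68150744 to 68154021, plus strand). Its FPKM was 19.7 in live cells (18.9 to 20.6) and 22.3 in processed cells (21.4 to 23.1), 1.13-fold higher with separate bounds. SESN1, a sestrin that links p53 to the control of growth and oxidative stress (ENSG00000080546.9, chromosome 6, 109307640 to 109416022, minus strand), had 13.4 FPKM in live cells (12.6 to 14.2) and 9.82 FPKM in processed cells (9.32 to 10.3). It was 1.36-fold lower, and its bounds were also separate. The 3 stress genes thus did not share a direction.

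MDM2 (ENSG00000135679.16, chromosome 12, 69201956 to 69239214, plus strand) was the member with the largest difference upward. It had 27.8 FPKM in live cells (26.0 to 29.6) and 46.4 FPKM in processed cells (43.1 to 49.8), 1.67-fold higher (1.46 to 1.91 from the bounds). Its log2 ratio of 0.72 was above that of 89.6% of all genes compared and of 93.9% of the protein-coding ones. The MDM2 value is less certain than its bounds show, because 3 other genes that reached 1 FPKM overlap the end of MDM2. All 3 reach into its last exon, which holds the 3' untranslated region. RP11-611O2.5, a long noncoding RNA gene on the opposite strand (chromosome 12, 69235068 to 69237017), had 11.9 FPKM in live cells and 23.1 in processed cells, moving the same way as MDM2. RP11-611O2.3, a processed pseudogene on the MDM2 strand (69235726 to 69236164), had 4.97 FPKM in live cells with bounds of 0 and 10.6, and its upper bound in processed cells was 0.0792. CPM, a carboxypeptidase gene that ends in this region on the minus strand (69235977 to 69365350), had 11.3 and 13.1 FPKM with overlapping bounds. The strandedness of the libraries is not given in the sources used here, and fragments of these genes cannot be told apart from those of MDM2 where they overlap. None of the other 8 members overlaps a gene that reached an FPKM of 1.

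**Figure D2:**
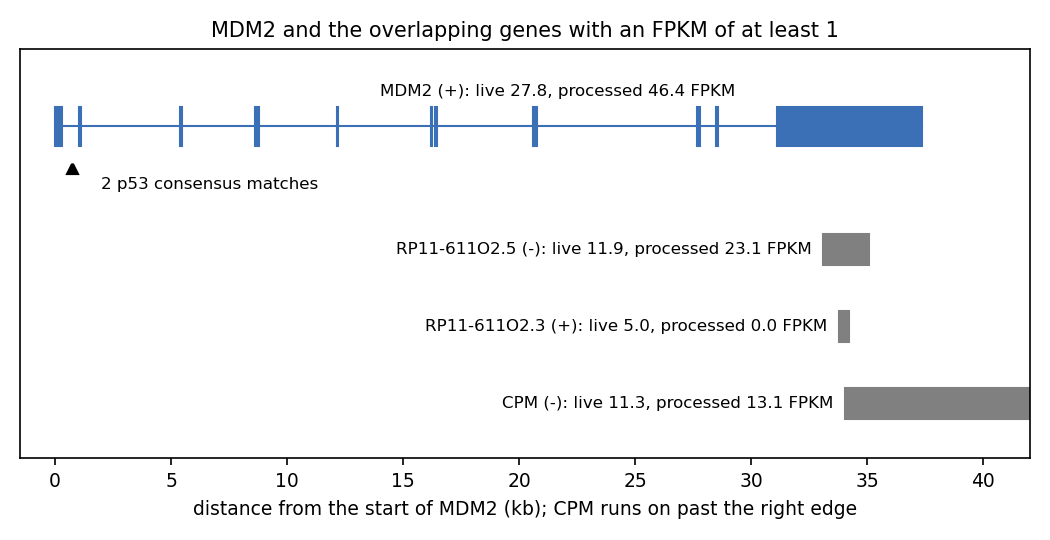
Map of MDM2 by distance from its start in kb, with the exons of its canonical transcript as blue boxes, 2 p53 consensus matches as a triangle in the first intron, and the overlapping genes with their strand and FPKM as grey boxes. All 3 overlapping genes lie over the last exon, where RP11-611O2.5 had 11.9 FPKM in live cells and 23.1 in processed cells.

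Both BH3-only genes were lower in processed cells. PMAIP1 (ENSG00000141682.11, chromosome 18, 57567180 to 57571538, plus strand) had 2.84 FPKM in live cells (2.51 to 3.17) and 0.795 FPKM in processed cells (0.656 to 0.934). This was 3.58-fold lower, or 2.69- to 4.83-fold from the bounds, with a log2 ratio of -1.10. It was the lowest of the 9 in both libraries, at about 490.0 and 128 fragments, and reached 1 FPKM in live cells only. BBC3 (ENSG00000105327.10, chromosome 19, 47724079 to 47736023, minus strand) had 4.49 FPKM in live cells (4.16 to 4.82) and 2.86 FPKM in processed cells (2.53 to 3.20), 1.57-fold lower with separate bounds and a log2 ratio of -0.51. A lower log2 ratio than that of BBC3 was found in 19.1% of the genes compared, so that its difference was of a common size.

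The effector and the protective genes differed little. BAX (ENSG00000087088.14, chromosome 19, 49458072 to 49465055, plus strand) had 61.2 FPKM in live cells (58.1 to 64.4) and 57.4 FPKM in processed cells (52.9 to 62.0), and the bounds overlapped. MCL1 (ENSG00000143384.8, chromosome 1, 150547032 to 150552066, minus strand), the member of highest FPKM in both libraries, had 67.8 FPKM in live cells (66.7 to 68.8) and 66.2 FPKM in processed cells (65.3 to 67.2), again overlapping. The log2 ratios of BAX and MCL1, -0.09 and -0.03, became 0.01 and 0.07 when processed values were divided by 0.932, the median ratio of the genes that reached 1 FPKM in both libraries, and MCL1 also turned positive, to 0.03, relative to ACTB. BCL2L1 (ENSG00000171552.8, chromosome 20, 30252255 to 30311792, minus strand) had 39.1 FPKM in live cells (37.9 to 40.3) and 32.3 FPKM in processed cells (30.8 to 33.9), 1.21-fold lower with separate bounds.

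Counts of members have to be read beside those of all genes. Of the 9 members, 2 were more than 2-fold lower in processed cells, CDKN1A and PMAIP1, compared with 6.19% of the 17326 genes and 3.53% of the 13573 protein-coding genes among them. More than 2-fold higher were 0 members, compared with 6.57% of all and 3.15% of protein-coding genes. Large differences were more frequent at low FPKM. In the range of mean FPKM from 3 to 10 that includes CDKN1A, 3.70% of protein-coding genes were more than 2-fold lower, and in the range from 1 to 3 that includes PMAIP1 the share was 7.95%. Separate bounds were the rule rather than the exception. They were found for 71.8% of all genes compared. The 5 members with separate bounds that were lower in processed cells (55.6% of the 9) stand beside 43.7% of all genes and 47.0% of protein-coding genes, and the 2 that were higher (22.2%) stand beside 28.1% and 25.6%. The split of the background depended on scaling. After division by the median ratio, 6022 genes were higher and 6180 lower with separate bounds, in place of 4867 and 7570, and of the members 3 were higher and 5 lower. The shares of members were near the background, and separate bounds alone therefore say little about the 9 genes.

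**Figure D3:**
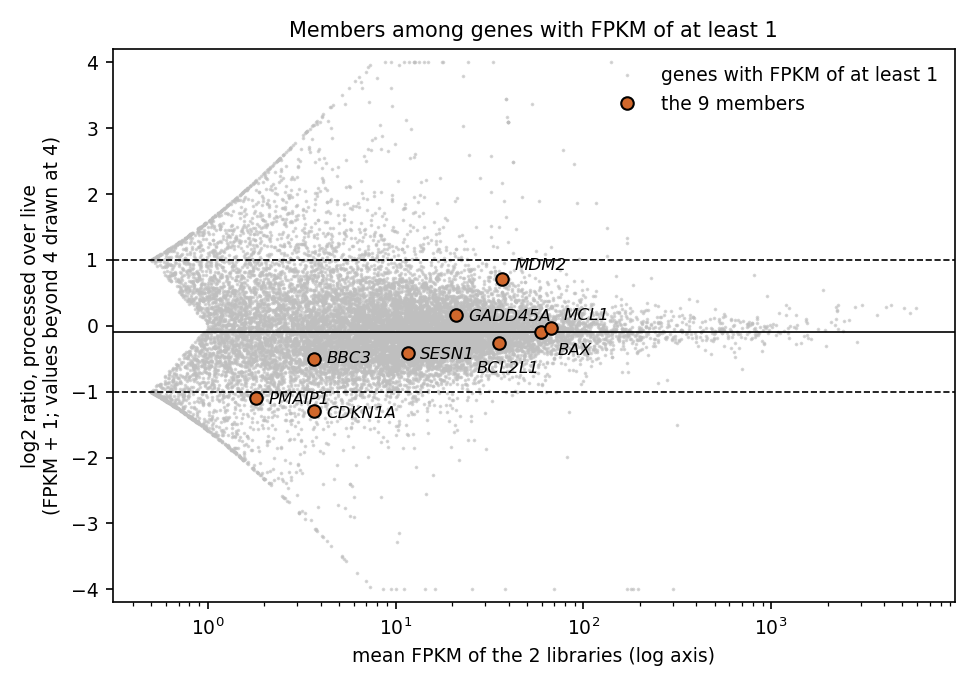
Log2 ratio of processed over live FPKM, each plus 1, against the mean FPKM of the 2 libraries on a log axis, for the 17326 genes that reached 1 FPKM (grey) and the 9 members (orange). The solid line is the median of all genes, -0.09, and the dashed lines mark 2-fold, below which only CDKN1A and PMAIP1 lie among the members.

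FPKM is scaled to gene length, and levels can be compared between genes within a library. In live cells the members ranked in the order MCL1, BAX, BCL2L1, MDM2, GADD45A, SESN1, CDKN1A, BBC3 and PMAIP1, and the bounds of each gene were separate from those of the next. In processed cells the order differed in 2 places. MDM2 stood above BCL2L1, and BBC3 stood above CDKN1A, again with separate bounds between all neighbours.

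Ratios of 2 genes within a library do not depend on how the library was scaled. BAX to BCL2L1, an effector of cell death against its inhibitor, was 1.57 in live cells (1.44 to 1.70 from the bounds) and 1.78 in processed cells (1.56 to 2.01), so that the ranges overlapped. PMAIP1 to MCL1, a BH3-only gene against that of its main binding partner, was 0.0419 in live cells (0.0365 to 0.0475) and 0.0120 in processed cells (0.00976 to 0.0143). This ratio was 3.49-fold lower in the processed library, and nearly all of the difference came from PMAIP1. The FPKM of MDM2 was 4.92 times that of CDKN1A in live cells (4.26 to 5.70) and 27.3 times in processed cells (22.7 to 33.0), a pair that was chosen after its values had been seen. The ratio of these p53-induced genes differed 5.54-fold between the libraries.

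The starts of these genes were examined because MDM2 and CDKN1A, both induced by p53, differed in opposite directions. RefSeq windows of 250 bases before to 50 bases after a transcription start were at hand for 7 of the 9 members, in 13 windows, and not for GADD45A and MCL1. Each was searched on both strands for the p53 consensus element, 2 adjacent decamers without spacer, with at most 3 mismatches over 20 bases. The limit was set after the sequences had been seen, and 5.20% of all 35116 windows hold such a match. Among the members, matches were found for MDM2, SESN1 and PMAIP1. The window of the internal MDM2 start (GRCh37 chr12:69202547-69202846, plus strand) lies in the first intron, between exons 1 and 2, and holds 2 matches with 2 and 3 mismatches. No match was found in the windows of the first MDM2 start or of CDKN1A (chr6:36646241-36646540, plus strand), whose p53 elements are known to lie farther upstream. SESN1 has 1 match with 3 mismatches in the window of an internal start (chr6:109330142-109330441, minus strand), and PMAIP1 has 1 with 3 mismatches (chr18:57566978-57567277, plus strand). These 4 windows are given 5' to 3', with the matches in capitals, so that the start region of the member with the largest difference upward can be set beside those of members that were lower. A match is a likeness of letters and was not tested for binding, and the files used here give 1 FPKM per gene, so that use of the internal start was not measured.
MDM2: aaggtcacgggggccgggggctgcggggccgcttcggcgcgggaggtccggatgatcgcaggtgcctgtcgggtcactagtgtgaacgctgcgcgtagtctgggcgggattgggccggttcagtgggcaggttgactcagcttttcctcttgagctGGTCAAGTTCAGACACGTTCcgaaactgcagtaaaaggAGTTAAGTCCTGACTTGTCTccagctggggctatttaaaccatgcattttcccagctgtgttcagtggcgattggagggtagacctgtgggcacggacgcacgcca
CDKN1A: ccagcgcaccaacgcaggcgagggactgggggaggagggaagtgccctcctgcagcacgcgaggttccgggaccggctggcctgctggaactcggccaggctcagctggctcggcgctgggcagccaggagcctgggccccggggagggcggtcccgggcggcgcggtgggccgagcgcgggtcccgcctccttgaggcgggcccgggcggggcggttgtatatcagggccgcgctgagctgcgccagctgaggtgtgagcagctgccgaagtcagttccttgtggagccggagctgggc
PMAIP1: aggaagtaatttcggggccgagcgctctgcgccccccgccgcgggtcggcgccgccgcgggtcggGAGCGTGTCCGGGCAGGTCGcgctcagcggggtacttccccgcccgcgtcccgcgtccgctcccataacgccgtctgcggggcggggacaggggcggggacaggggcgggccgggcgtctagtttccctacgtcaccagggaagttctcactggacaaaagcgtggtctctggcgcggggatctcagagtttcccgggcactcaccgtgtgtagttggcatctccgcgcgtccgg
SESN1: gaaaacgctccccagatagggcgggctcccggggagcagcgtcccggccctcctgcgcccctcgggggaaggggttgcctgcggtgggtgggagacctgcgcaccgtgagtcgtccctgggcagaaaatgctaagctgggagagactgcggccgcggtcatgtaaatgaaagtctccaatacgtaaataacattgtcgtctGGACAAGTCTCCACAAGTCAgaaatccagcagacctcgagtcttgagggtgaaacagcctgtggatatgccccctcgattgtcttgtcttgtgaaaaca

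The mature transcripts were compared as well. The pentamer ATTTA, the core of AU-rich elements that are known to shorten the life of an mRNA, was counted in the 3' untranslated region of the canonical transcript of each member. It was present in 7 of 9 members, and in 72.1% of 13500 protein-coding genes compared. PMAIP1 had 5 copies in 1552 nt and CDKN1A had 3 copies in 1532 nt, whereas BBC3, with 978 nt, and BAX, with 162 nt, had 0. MDM2 had 23 copies in 5695 nt, MCL1 had 10 in 2817 nt and SESN1 had 9 in 3235 nt. BCL2L1 had 3 copies in 1491 nt and GADD45A had 2 in 560 nt. Copies per kb were 4.04 in MDM2, 3.57 in GADD45A, 3.55 in MCL1, 3.22 in PMAIP1 and 2.78 in SESN1. They were 2.01 in BCL2L1 and 1.96 in CDKN1A, compared with a median of 1.78 over protein-coding genes. Of the members with the most copies per kb, MDM2 and GADD45A were higher in processed cells, PMAIP1 and SESN1 were lower and MCL1 had overlapping bounds. The GC content of the transcripts ran from 36.7% in PMAIP1 to 69.7% in BBC3, and both were lower in processed cells. The part of AU-rich elements or of GC content in the differences was not tested.

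Upstream of the members, MDM4, the partner of MDM2 in restraining p53, had 21.3 FPKM in live cells and 17.9 in processed cells, 1.19-fold lower with separate bounds, and so did not go with MDM2. Of the 12 regulators of p53 listed, 11 reached an FPKM of 1, of which 7 were lower (63.6%) and 1 was higher (9.09%) with separate bounds, beside 47.0% and 25.6% of protein-coding genes, and 0 passed 2-fold. The lowest and the highest log2 ratio belonged to the checkpoint kinases, CHEK2 with 7.80 and 5.75 FPKM and CHEK1 with 18.8 and 23.6 FPKM in live and processed cells. CHEK2 overlaps HSCB and CHEK1 overlaps STT3A, both expressed. ATR, the kinase that activates CHEK1, had 6.24 and 7.18 FPKM, and the deubiquitinase USP7 was the most abundant of the list at 57.7 and 64.8 FPKM, both with overlapping bounds.

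Of 29 other p53 targets, 27 reached an FPKM of 1 and had a median log2 ratio of -0.28. With separate bounds, 18 were lower (66.7%) and 3 were higher (11.1%) in processed cells, beside 47.0% and 25.6% of protein-coding genes. Past 2-fold on the log2 scale lay PLK3 alone, a stress-responsive kinase that had 3.73 FPKM in live cells (3.22 to 4.25) and 0.662 FPKM in processed cells (0.417 to 0.908). FAS, a death receptor, had 1.37 and 0.412 FPKM, 3.32-fold lower as a plain ratio with a log2 ratio of -0.75. It overlaps ACTA2, which had 6.10 and 2.43 FPKM. The largest differences upward were those of CMBL, a hydrolase, with 3.77 FPKM in live cells and 7.89 in processed cells, and of EDA2R, a receptor of the TNF family, with 0.807 and 2.05 FPKM. EDA2R reached 1 FPKM in processed cells only, and PLK3 and FAS in live cells only. CCNG1, the most abundant of the list, had 99.9 and 95.5 FPKM, a log2 ratio of -0.06. Targets thus lay on both sides, as CDKN1A and MDM2 did. The effect of scaling was counted over all 5 lists together, of which 66 genes reached an FPKM of 1, and not for these targets alone. After division by the median ratio, 17 of the 66 were higher and 30 lower with separate bounds, in place of 9 and 42. Of the 17326 genes compared, 6022 were then higher and 6180 lower, in place of 4867 and 7570.

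The paralogues of the members did not all follow them. GADD45B had 7.95 FPKM in live cells and 8.98 in processed cells and GADD45G had 8.35 and 9.47 FPKM, each with overlapping bounds and a log2 ratio of 0.16, the value of GADD45A. SESN2 was 1.74-fold lower in processed cells, from 7.87 to 4.53 FPKM, and SESN3 was 1.24-fold lower, from 16.2 to 13.1 FPKM. All 3 sestrin genes were therefore lower with separate bounds, as were 47.0% of the protein-coding genes compared.

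In the BCL2 family, 10 of 12 further genes reached an FPKM of 1, with a median log2 ratio of -0.40. Of these, 8 were lower (80.0%) and 1 was higher with separate bounds, beside 47.0% and 25.6% of protein-coding genes, and 0 passed 2-fold on the log2 scale used here. BCL2, the founding protective gene, had 1.95 FPKM in live cells (1.66 to 2.24) and 0.579 FPKM in processed cells (0.509 to 0.649). It was 3.37-fold lower as a plain ratio, with a log2 ratio of -0.90. BAK1, the effector that acts beside BAX, had 8.76 FPKM in live cells and 4.64 in processed cells, 1.89-fold lower, whereas BAX differed by less than its bounds. HRK, a BH3-only gene, was the one that was higher, at 0.874 and 1.10 FPKM. HRK reached 1 FPKM in processed cells only and BCL2 in live cells only, so that each was compared through the library where it was higher. BMF, also BH3-only, was the most abundant, with 28.3 and 25.6 FPKM. The genes that were lower included protective, effector and BH3-only ones. Their share of this list of 10 was above that of protein-coding genes, and the reason was not tested.

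Downstream of the mitochondria, 14 of 15 caspase, apoptosome and inhibitor genes reached an FPKM of 1, with a median log2 ratio of -0.03. With separate bounds, 7 were lower (50%) and 4 were higher (28.6%), near the 47.0% and 25.6% of protein-coding genes. On the log2 scale used here 0 passed 2-fold. CASP8, the initiator at death receptors, had 0.613 and 1.38 FPKM and so reached 1 FPKM in processed cells only. APAF1, the scaffold of the apoptosome, had 12.8 FPKM in live cells and 19.3 in processed cells. APAF1 overlaps ANKS1B, which had 11.98 FPKM in live cells and 2.27 in processed cells, and the part of this overlap in the APAF1 values was not tested. DIABLO, which relieves the inhibition of caspases, was the most abundant at 60.4 and 54.0 FPKM.

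**Figure D4:**
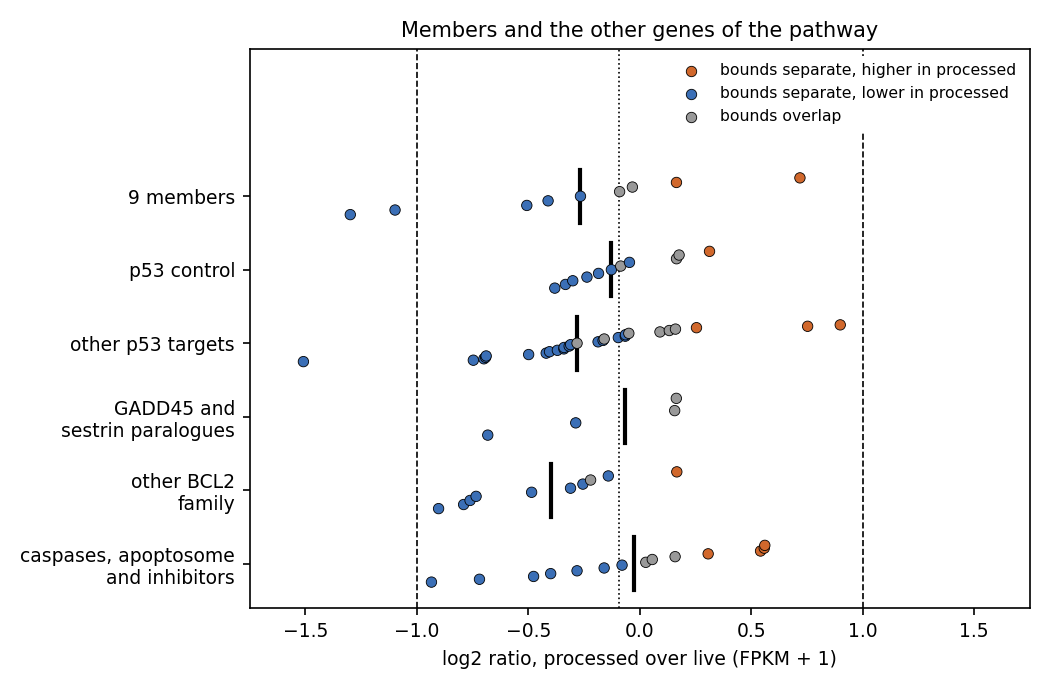
Log2 ratio of processed over live FPKM, each plus 1, for the 9 members and the genes of the 5 other lists that reached 1 FPKM, 1 point per gene. Colour shows whether the bounds were separate, the thick bar is the median of each list, the dotted line is the median of all genes, -0.09, and the dashed lines mark 2-fold. CDKN1A, PMAIP1 and, among the other targets, PLK3 lie below the lower line, and 0 genes lie above the upper one.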

How the data were processed

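Reads (paired, 80 nt) were mapped by the authors with STAR 2.2.0c on GRCh37/hg19, guided by GENCODE 14. Gene FPKM values were obtained by the authors with Cuffdiff, listed as Cufflinks 2.0.2 in the submitters' processing notes. The deposited values are FPKM with a lower and an upper bound, whose level is not stated, and 1 library was made per condition. Counts are not used here, since the files analysed hold none. The 2 files were joined by Ensembl identifier with Python 3.11.15, pandas 2.3.3 and numpy 2.4.6. Log2 ratios used a pseudocount of 1, and all genes that reached 1 FPKM in either library were compared. Some genes, PMAIP1 among them, reached 1 FPKM only in the library where they were higher. The direction of such genes was partly set by this limit. Bounds that did not overlap are called separate. No test was possible.

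The members and the 5 lists were chosen with earlier results of these data known. Named list genes are MDM4, the paralogues of members, and in each list the genes with the 2 lowest log2 ratios below 0, the 2 highest above 0 and the highest live FPKM. Some genes that this rule names are not reported here. Genes overlapping a member are named at an FPKM of at least 1. TIGAR and PIDD1 were matched by their older symbols. Genes of like pattern were not sought, as 2 libraries give none. The worth of 1 fragment was taken as the most frequent low value of FPKM times transcript length less 170 nt, in genes with a single transcript, and fragment numbers are approximate because they assume the canonical transcript. Gene types, strands and transcripts came from GENCODE 44 on GRCh37, which held 94.5% of the identifiers. Overlaps were found from the gene positions given with the FPKM values. Promoter windows are RefSeq sequences tabulated on GRCh38.p14 and were placed on GRCh37 by exact match. The calculations were tested on simulated data.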

Additional observations from a re-analysis of the deposited data

How the results depend on the processing

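No paired analysis was possible because each condition has 1 library, and for the same reason no library could be left out. Of 45 log2 ratios of members under alternative pseudocounts and scalings, 42 kept their sign. The exceptions were BAX and MCL1, given above. CDKN1A and PMAIP1 stayed more than 2-fold lower under each pseudocount and scaling, from -1.73 to -1.23 and from -1.84 to -1.05. With the minimum FPKM raised to 10, which by construction removes CDKN1A, PMAIP1 and BBC3, the median log2 ratio of the members left was -0.062, 0 were more than 2-fold lower and 2 were lower with separate bounds. Of the list genes, 0 were then more than 2-fold lower, and 5 were higher and 25 lower with separate bounds. Of all genes at this minimum, 172 were more than 2-fold lower, and 2285 were higher and 4019 lower with separate bounds. Lower values were thus the more common ones in the background as well, but shares of the genes left at this minimum are not given here. At the minimum of 1 FPKM, 63.6% of the list genes and 43.7% of all genes were lower with separate bounds. The shares that were higher were 13.6% and 28.1%. With a pseudocount of 0.1, 3 list genes passed 2-fold upward and 4 downward, in place of 0 and 1. Over all genes, the same pseudocount put 1715 past 2-fold upward and 1753 downward. The number of list genes higher with separate bounds, 9, became 17 after scaling by the median ratio and 15 after scaling by ACTB, while the number lower, 42, became 30 and 31. Over all genes, 6022 were then higher and 6180 lower by the median ratio, and 5616 and 6612 by ACTB, in place of 4867 and 7570. Scaling by the median ratio brings these counts close by construction. The excess of lower genes was smaller but still present after scaling by ACTB and after scaling to equal sums of FPKM (5203 and 7106). With 1 added to each FPKM, PMAIP1 to MCL1 was 0.0559 in live and 0.0267 in processed cells. Bounds describe a library alone, and variation between libraries of one condition is not measured.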
